A study of Mus musculus with 10 samples.

Results

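Myh7, Myh6, Myh7b and Gm29015 are 4 of the 16112 genes in a table of read counts from 3 skeletal muscles of the mouse, and were selected by name because their loci hold the slow and cardiac-type sarcomeric myosin heavy chains. The deposited Ensembl identifiers were matched to symbols with the GENCODE M21 annotation of GRCm38, and all 4 were found. RNA came from the extensor digitorum longus (EDL, a fast muscle of the lower leg, 3 libraries), the psoas (a fast muscle of the lower back, 3 libraries) and the soleus (a slow, postural muscle of the calf, 4 libraries). All libraries were from wild-type mice of the strain labelled B6C3Fe a/a-Ttnmdm/J, with no treatment or transgene given. The methods state that these mice also served another study, which is not described there. Ages were 42, 54 and 44 days for replicates 1 to 3 of both EDL and psoas, and 42, 44, 32 and 44 days for replicates 1 to 4 of soleus. Sex was given as male for 5 libraries (EDL 1 and 2, psoas 1 and 2, soleus 1), as female for 4, and was not given for soleus 3. Among the 7 animal codes in the labels, 3 recur (659 gave psoas 1 and soleus 1, 765A gave EDL 3 and soleus 2, 765B gave psoas 3 and soleus 4). Some libraries are therefore different muscles of 1 animal, and p-values measure the spread between libraries. The methods of the study count fewer mice than there are codes, so further libraries could share an animal.

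Myosin heavy chain is the motor of the thick filament, and the isoform a fibre makes sets how fast it shortens. Myh7 encodes the slow (type I, beta) chain of slow skeletal fibres and of the heart ventricle, and Myh6 encodes the alpha chain, best known from cardiac muscle. Myh7b encodes an ancient slow-type chain whose messenger is made in heart and slow muscle, often without much protein. Each of these genes carries a microRNA in an intron (Mir208b in Myh7, Mir208a in Myh6, Mir499 in Myh7b), and the 3 microRNAs, called myomiRs, are known to repress regulators of the fast fibre programme such as Sox6. Gm29015 is an annotated antisense gene inside Myh7, near Mhrt, an antisense RNA known from the heart.

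Myh7 lies on the minus strand at chr14:54970684-54994626 (GRCm38, ENSMUSG00000053093, exon union of 8616 bp). Myh6 (ENSMUSG00000040752, exon union of 6726 bp) follows it on the same strand at chr14:54941921-54966927, 3757 bp away. Myh7b (ENSMUSG00000074652, exon union of 6634 bp) stands alone on the plus strand at chr2:155611212-155634307. Gm29015 (ENSMUSG00000101680) covers chr14:54973029-54973359 on the plus strand with 2 exons and 207 exonic bases. Of these bases, 142 (68.6%) lie opposite exons 36 and 37 of the 41 exons of transcript Myh7-201, and the rest lie opposite introns 36 and 37. Mhrt (ENSMUSG00000097652) runs on the plus strand from chr14:54968678-54974349 and has 484 exonic bases opposite exons of Myh7, but shares no exonic base with Gm29015.

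**Figure D1:**
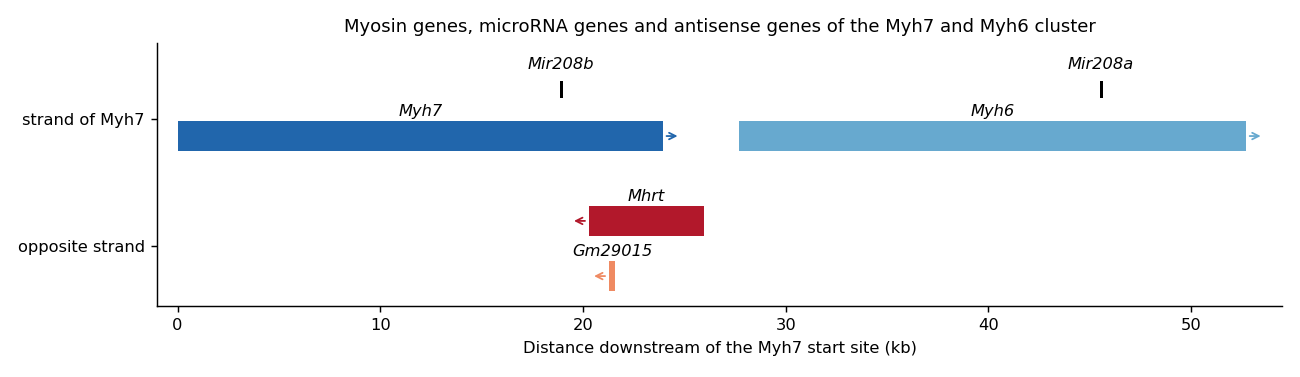
The bars show the gene spans of the Myh7 and Myh6 cluster by distance downstream of the Myh7 start site in kb, with arrows for the direction of transcription. Myh7 and Myh6 run the same way, 3757 bp apart, and the antisense genes Mhrt and Gm29015 run the opposite way over the 3′ part of Myh7.

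The RNA of Gm29015 is shown because most of it is the complement of Myh7 coding exons, so reads that lie within those bases can be assigned only by strand. Capitals mark the bases opposite an exon of Myh7.
Gm29015 RNA (GENCODE M21, chr14:54973029-54973359, plus strand): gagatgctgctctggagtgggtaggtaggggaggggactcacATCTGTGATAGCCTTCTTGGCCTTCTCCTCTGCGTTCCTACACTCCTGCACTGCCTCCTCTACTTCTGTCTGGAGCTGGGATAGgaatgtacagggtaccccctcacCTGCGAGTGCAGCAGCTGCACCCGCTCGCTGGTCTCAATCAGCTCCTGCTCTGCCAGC

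The mature microRNAs of the 3 host introns (RefSeq, GRCm38.p6) are shown because they tie the loci to one another. Capitals mark the seed, bases 2 to 8 from the 5′ end.
mmu-miR-208a-3p (intron 29 of Myh6-201, chr14:54949072-54949093, minus strand): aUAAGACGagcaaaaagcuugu
mmu-miR-208b-3p (intron 31 of Myh7-201, chr14:54975710-54975731, minus strand): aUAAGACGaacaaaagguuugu
mmu-miR-499-5p (intron 19 of Myh7b-201, chr2:155622893-155622913, plus strand): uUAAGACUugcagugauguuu
The seed of miR-208a and miR-208b is the same, and that of miR-499 differs from it by G8U, counted from the 5′ end with the miR-208 base first. The microRNA genes themselves were not analysed here.

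Myh7 and Myh6 are close copies, with 91.8% identity between the aligned coding sequences of Myh7-201 and Myh6-201, against 73.1% between Myh7 and Myh7b. Among 75-base windows of the Myh6-201 transcript, 15.5% were found without a mismatch in Myh7-201, and 38.4% with at most 2 mismatches. For Myh7b these shares were 0% and 0.213%. How reads with several alignments were counted is not given in the sources used here, so the levels of Myh6 and Myh7 are uncertain by as much as their shared stretches contribute.

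Total counts ranged from 12737971 to 50431713 per library, and a count of 0 allows up to 3 counts, between 0.0565 and 0.239 CPM (counts scaled to the library total as normalized by TMM, edgeR's trimmed mean of M-values). Reads of EDL 1, EDL 2, psoas 1 and psoas 2 were quality-trimmed by the authors, and those of EDL 3, psoas 3 and the 4 soleus libraries were not. EDL 3 and psoas 3 were also the only female libraries of their muscles and had the fewest counts in them. Trimming, sex and depth therefore cannot be told apart within a fast muscle. Sequencing took several runs, and the methods do not say which library was in which run. Muscles were compared with edgeR's quasi-likelihood test over all 16112 genes. A gene is called here when its adjusted p (Benjamini-Hochberg) is under 0.01 and its fold change over 2. Intervals and floors cover counting error only.

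Levels are given as FPKM, fragments per kilobase of exon scaled to library size, which allows genes of different length to be compared. In soleus, Myh7 was at 784, 1515, 957 and 1211 FPKM in replicates 1 to 4 (1117 ± 318, SD, n = 4). In EDL it was at 0.861, 3.47 and 13.4 FPKM, and in psoas at 0.375, 1.16 and 0.600 FPKM. Soleus stood far above every fast library, while EDL and psoas overlapped. The fold change was 191 against EDL (log2 7.58 ± 0.98, SE, adjusted p = 0.000576, range over 23 alternatives 1.29e-20 to 0.0105) and 1615 against psoas (log2 10.66 ± 1.11, adjusted p = 0.00017, range 4.08e-40 to 0.00518). In whole-muscle RNA, fewer slow fibres and less messenger per fibre cannot be told apart.

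Myh6, the alpha chain, was at 228, 387, 173 and 205 FPKM in soleus (248 ± 95.3, n = 4). It was at 1.13, 1.40 and 4.67 FPKM in EDL and at 0.571, 0.760 and 0.519 FPKM in psoas. All 3 muscles were separate, in the order soleus, EDL, psoas. The soleus level was 105-fold that of EDL (log2 6.72 ± 0.61, adjusted p = 8.84e-05, range over alternatives 5.26e-50 to 0.0111) and 413-fold that of psoas (log2 8.69 ± 0.67, adjusted p = 5.28e-05, range 7.56e-81 to 0.00598).

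Myh7b was the lowest of the 3 coding genes in every muscle. It was at 1.82, 3.11, 3.30 and 2.86 FPKM in soleus (2.77 ± 0.657, n = 4), at 0.575, 0.450 and 0.319 FPKM in EDL, and at 0.157, 0.0771 and 0.274 FPKM in psoas. The 3 muscles again did not overlap, although the lowest EDL library was close to the highest psoas library. The psoas values rest on 39, 8 and 26 counts. The fold change was 6.16 against EDL (log2 2.62 ± 0.35, adjusted p = 0.000711, range over alternatives 1.83e-13 to 0.0186) and 16.9 against psoas (log2 4.08 ± 0.40, adjusted p = 0.000142, range 4.72e-26 to 0.0209).

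Gm29015, the antisense gene, had 143, 1225, 86 and 199 counts in soleus. It had 0, 1 and 2 counts in EDL, and 0 in each psoas library. Its soleus libraries alone brought it past the authors' filter of 10 reads or more in 3 or more samples. The p-values of this gene are therefore not independent of that filter. In FPKM the soleus libraries were at 46.7, 170, 33.4 and 49.5 (74.9 ± 63.9, n = 4), with soleus 2 far above the others. Since every fast library was at or under the floor of 3 counts per library, the fold is a lower bound, computed against that floor: at least 164-fold higher in soleus than in EDL (adjusted p = 0.000581, range over alternatives 9.0e-11 to 0.0800) and at least 99.3-fold higher than in psoas (adjusted p = 0.00065, range 1.75e-10 to 0.0751). Without soleus 2 these bounds were 93.2-fold and 56.3-fold, and the lowest soleus library over the highest floor gave 41.6-fold and 32.3-fold. EDL and psoas are not compared for this gene. The floor of 3 counts averaged 0.0971 CPM in EDL and 0.161 CPM in psoas.

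**Figure D2:**
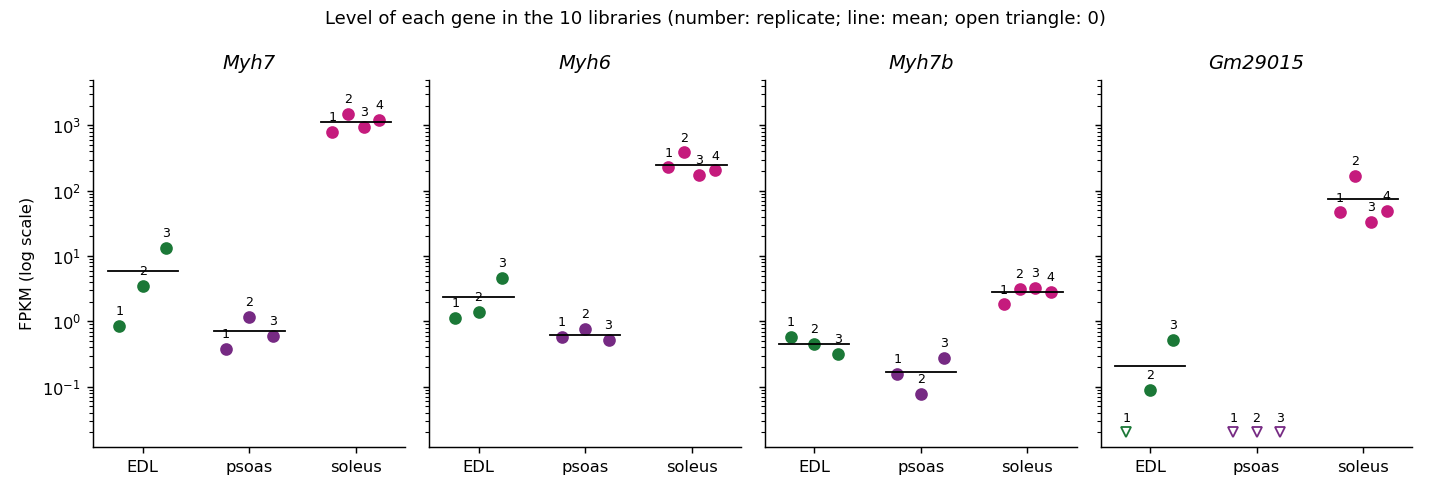
Each point is the FPKM of 1 library on a log scale, with its replicate number, by muscle and gene; lines are group means and open triangles are libraries at 0. Soleus lies above both fast muscles for all 4 genes, EDL 3 is the highest EDL library for Myh7 (13.4 FPKM) and Myh6 (4.67 FPKM), and soleus 2 is the highest for Gm29015 (170 FPKM).

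With Gm29015 in the data only through its soleus counts, all 4 genes were called higher in soleus than in EDL. In that comparison 5.77% of the genes tested were called (3.59% higher in soleus). All 4 were also called higher than in psoas, where 5.69% were called (2.99% higher). Their groups did not overlap in either comparison, as held for 29.5% and 25.8% of all genes in either direction, and for 15.2% and 13.9% in this one. Without the trimmed libraries, soleus against EDL 3 gave log2 fold changes of 6.34 for Myh7, 5.69 for Myh6 and 3.08 for Myh7b, and soleus against psoas 3 gave 10.86, 8.90 and 3.33. In those fits 1 fast library was assumed to vary like the others, and the calls against EDL were lost for the 3 coding genes, as were that of Myh7b against psoas and both calls of Gm29015 (adjusted p = 0.0800 and 0.0751). With trimming as a covariate over all libraries, Myh7b against EDL (2.50, adjusted p = 0.0152) and Gm29015 against both (adjusted p = 0.0272 and 0.0146) were not called. Leaving out any 1 library ended no call of the 4 genes against EDL or psoas, but without EDL 3 the log2 fold change against EDL was 9.03 for Myh7 and 7.63 for Myh6. With the animal code as a random effect (limma-voom), the 4 genes were called in both comparisons, with 8.19 and 10.76 for Myh7.

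Between the fast muscles, none of the 4 genes was called, where 2.11% of the genes tested were (1.57% lower in psoas). The 3 coding genes had an unadjusted p under 0.05 in edgeR, lower in psoas, and the share of all genes at that p is not given here. DESeq2 called these 3 lower, but it called 1095 of the 16112 genes in this comparison, 666 of them lower. Myh6 and Myh7b, 2 of the 4 genes, did not overlap between the fast muscles, as held for 29.6% of all genes (16.3% lower in psoas). The log2 fold change of psoas against EDL was −3.08 ± 0.81 for Myh7 (adjusted p = 0.0342, range over 24 alternatives 0.00289 to 0.293), −1.97 ± 0.52 for Myh6 (adjusted p = 0.0342, range 0.00077 to 0.400) and −1.46 ± 0.39 for Myh7b (adjusted p = 0.0362, range 0.00315 to 0.988). Without EDL 3 the values were −1.63 for Myh7 and −1.06 for Myh6, nearer to 0, and −1.63 for Myh7b, farther from it. Among the trimmed libraries alone (2 against 2) they were −1.58, −0.98 and −2.07 for Myh7, Myh6 and Myh7b, and between the untrimmed EDL 3 and psoas 3 they were −4.52, −3.20 and −0.25.

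Relative to one another, the slow-type genes were not in a constant proportion. Per kilobase, Myh6 was 29.1, 25.5, 18.0 and 16.9% of Myh7 in soleus (22.4% ± 5.88, n = 4). In EDL it was 131, 40.2 and 34.8%, and in psoas 152, 65.3 and 86.6%. The share was thus lower in each soleus library than in any fast one. In EDL 1 and psoas 1 Myh6 was above Myh7 per kilobase of exon union (95% Wilson intervals 113 to 153% and 120 to 194%). By counts alone it was 102% and 119% of Myh7 there. The exon union is longer for Myh7 (8616 bp) than for Myh6 (6726 bp). Their transcripts Myh7-201 and Myh6-201 are of similar length (6061 and 6039 windows of 75 bases). Whether Myh6 exceeded Myh7 in these libraries thus depends on the length used. The difference of the log2 ratio was −1.38 for soleus against EDL and −2.13 against psoas (exact two-sided permutation tests over libraries, p = 0.0571 each, the smallest this design allows, adjusted over 9 tests 0.103). Leaving out 1 library gave −1.74 to −0.78 against EDL, the latter without EDL 1, and −2.40 to −1.79 against psoas. Given the shared stretches above, some of the Myh6 counts could stem from Myh7 or the reverse, and this was not tested.

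Myh7b was 0.233, 0.205, 0.344 and 0.236% of Myh7 per kilobase in soleus (0.255% ± 0.0613). It was 66.7, 12.9 and 2.38% in EDL, and 41.9, 6.62 and 45.6% in psoas. The soleus libraries lay close together, whereas the fast ones spread over more than an order of magnitude. The log2 ratio differed by −5.68 between soleus and EDL and by −6.58 between soleus and psoas (exact permutation p = 0.0571, adjusted 0.103 for both). The value against EDL was −4.48 without EDL 1 and −6.88 without EDL 3, and that against psoas was −7.46 without psoas 2. Between psoas and EDL it differed by 0.90 (exact permutation p = 0.7, the smallest possible being 0.1), and by −0.30 without EDL 3 and 2.096 without EDL 1.

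**Figure D3:**
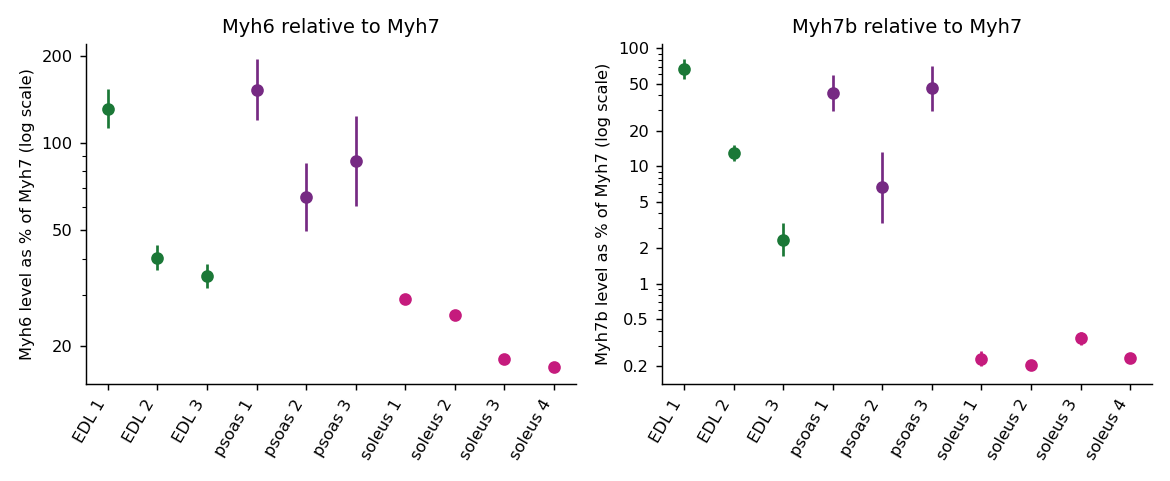
Points give the level of Myh6 (left) and Myh7b (right) as a percentage of Myh7 per kilobase on log scales, by library, with 95% Wilson intervals of the counts. Soleus lies lowest in both panels, at 16.9 to 29.1% for Myh6 and 0.205 to 0.344% for Myh7b.

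Set against the 10 sarcomeric myosin heavy chain genes together (summed FPKM), Myh6 made up 6.14% ± 2.44 in soleus (4.21 to 9.72%, n = 4) and Myh7b 0.0688% ± 0.0176. In EDL these shares were 0.0244% and 0.00506%, and in psoas 0.00535% and 0.00147%. Of the other members of the family, Myh4, the fastest chain, was called lower in soleus (log2 −5.16 against EDL and −5.46 against psoas), as were 2.18% and 2.71% of all genes. The neonatal Myh8 (−1.32 and −1.80) and the extraocular Myh13 (−1.35 and −1.78) were also called lower in both comparisons. Myh2, the fast oxidative chain, was called higher than in EDL (1.97, adjusted p = 0.00467) but not than in psoas (1.42, adjusted p = 0.0226). By edgeR, Myh1, Myh3 and Myh15 were not called in either. Of these 7 other myosin genes, DESeq2 called 1 higher and 3 lower in soleus against EDL. Against psoas it called 2 higher and 3 lower. The calls against EDL were lost for Myh2 without any 1 of EDL 1 to 3 or soleus 2 to 4 (adjusted p 0.0105 to 0.0252), and for Myh8 without EDL 1, EDL 2, soleus 2 or soleus 4 (0.0104 to 0.0137), in edgeR.

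The antisense genes varied more between soleus libraries than their host. Per kilobase, Gm29015 was 5.96, 11.2, 3.49 and 4.08% of Myh7 in soleus, and Mhrt was 1.67, 4.02, 1.25 and 1.52%. In both series soleus 2 was the highest. Mhrt had 235, 2573, 180 and 435 counts in soleus, between 2 and 6 in EDL, and 1, 0 and 7 in psoas. Like Gm29015, it met the filter through soleus alone. It was called higher in soleus, by 8.26 ± 1.01 on the log2 scale against EDL (adjusted p = 0.00042, range over alternatives 3.61e-09 to 0.0811) and by 7.97 ± 1.04 against psoas (adjusted p = 0.000594, range 3.04e-08 to 0.0955). Single libraries moved these values. Without soleus 2 they were 7.33 and 7.04, and without psoas 1 the value against psoas was 7.06. EDL 3 and psoas 3 had the highest Mhrt counts of their muscles, and without them the other fast libraries were at or under the floor (fitted values 9.18 and 10.48, which are no bounds). The strand setting of the authors' counting is not given in the sources used here, so a part of these counts could be Myh7 reads on the overlapping bases, and this was not tested. The bases opposite exons make up 1.65% of the Myh7 exon bases for Gm29015 and 5.62% for Mhrt. The counts of these genes in soleus were 0.0838 to 0.270% and 0.175 to 0.567% of those of Myh7. These shares cannot tell how reads were assigned, because the counting rule for reads that overlap both genes is not known.

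The other slow genes of the filaments were given by a list of 10 (light chains, troponins, tropomyosin and Z-disc genes). In soleus 9 of 10 were called higher against EDL, with a median log2 fold change of 6.56, and 9 of 10 against psoas, with a median of 7.64. Over all genes the medians were −0.05 and 0.02. Alternatives gave 7 to 9 in both. The slow troponin I gene Tnni1 differed by 7.22 against EDL (adjusted p = 0.000313) and 9.80 against psoas (adjusted p = 0.000139), slow tropomyosin Tpm3 by 6.42 and 7.99, and the slow regulatory light chain Myl2 by 6.70 and 9.66. Leaving out EDL 3 or psoas 3 moved several of these folds by more than 1.5 times, for Tnni1 to 8.46 against EDL and for Myl2 to 11.25 against psoas. Without EDL 1 or EDL 2 the call of Myl2 against EDL was lost (edgeR adjusted p 0.0141 and 0.0144). Mybpc1, slow myosin binding protein C, was the exception, with 0.88 (adjusted p = 0.0235) and 0.87 (adjusted p = 0.0281). Between psoas and EDL 0 of the 10 were called by edgeR, with a median of −0.99 against 0.01 over all genes. At an unadjusted p under 0.05, 5 were lower and 1 higher in psoas, and DESeq2 called 2 lower and 1 higher.

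Of 5 calcium handling genes of slow fibres, 4 were called higher in soleus than in both fast muscles, with list medians of 5.62 against EDL and 6.60 against psoas. The slow calcium pump Atp2a2 differed by 7.07 and 7.42 (EDL and psoas), sarcolipin (Sln) by 5.62 and 6.60, calsequestrin 2 (Casq2) by 3.62 and 2.73, and Strit1, which encodes the pump activator DWORF, by 7.70 against EDL. In psoas Strit1 had 0, 2 and 0 counts, under the floor, so that soleus was at least 284-fold higher (at least 217-fold without soleus 3). Casq2 lost its call without EDL 1 or 2 against EDL and without psoas 1, psoas 2, soleus 2 or soleus 4 against psoas (edgeR adjusted p at most 0.0315). Without EDL 3, Atp2a2 differed by 8.15 and Strit1 by 8.72 against EDL, and without psoas 3, Sln differed by 7.39 and Casq2 by 3.67 against psoas. With the untrimmed libraries only 1 of the 5 genes was called in each comparison. Phospholamban (Pln) was at 1.70 (adjusted p = 0.129) and 2.66 (adjusted p = 0.0467). Soleus 3 stood far above the other soleus libraries for Pln (4.24, 5.68, 45.4 and 8.60 CPM in soleus 1 to 4). EDL 1 to 3 were at 5.25, 7.14 and 1.92 CPM, and psoas 1 to 3 at 2.59, 2.28 and 2.62 CPM. The folds of Myh7 and Myh6 thus stood among those of the other slow genes, and that of Myh7b was below most of them.

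**Figure D4:**
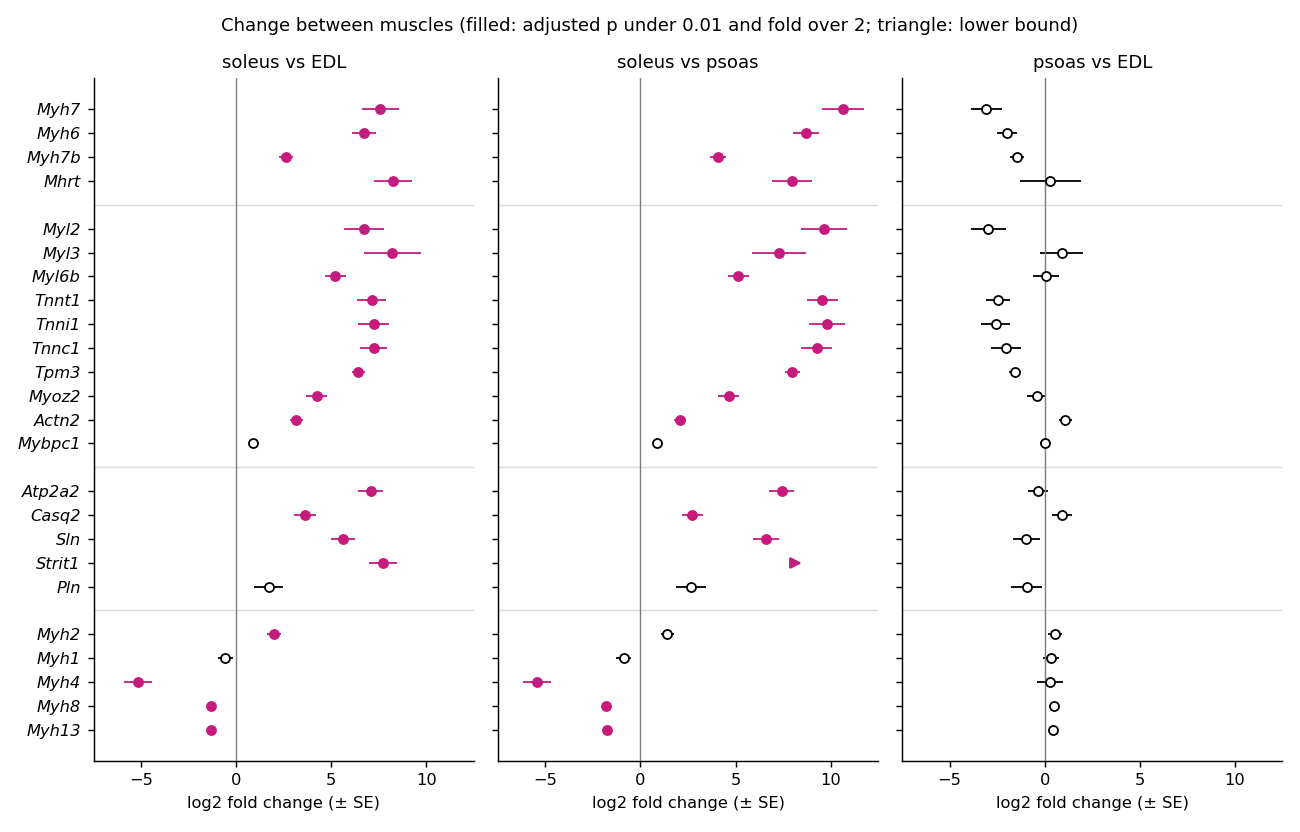
Points are log2 fold changes from edgeR with their SE in the 3 comparisons, for Myh7, Myh6, Myh7b and Mhrt and for the slow filament, calcium and other myosin genes, filled where called, with a triangle at the lower bound of Strit1 against psoas. Myh7, Myh6 and most slow filament genes lie between 5 and 11 in both soleus comparisons, and Myh4 lies below −5.

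In the fast muscles, the remaining level of the slow genes differed by library. Against the soleus mean, Myh7 was at 0.0771, 0.311 and 1.20% in EDL 1 to 3, and at 0.0335, 0.104 and 0.0537% in psoas. Myh6 was at 0.456, 0.563 and 1.88% in EDL and at 0.230, 0.306 and 0.209% in psoas. Myh7b was much higher, at 20.7, 16.2 and 11.5% in EDL and 5.65, 2.78 and 9.86% in psoas. EDL 3 was the highest EDL library for all 10 slow filament genes, among them Myl2 (1.57%), Tnnc1 (1.65%) and Tnnt1 (1.43%), but was the lowest for Myh7b. Psoas 3 was the highest psoas library for 9 of the 10, yet not for Myh7 or Myh6. EDL 3 is one of the untrimmed, female libraries, and the part of these in its slow gene level was not tested.

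**Figure D5:**
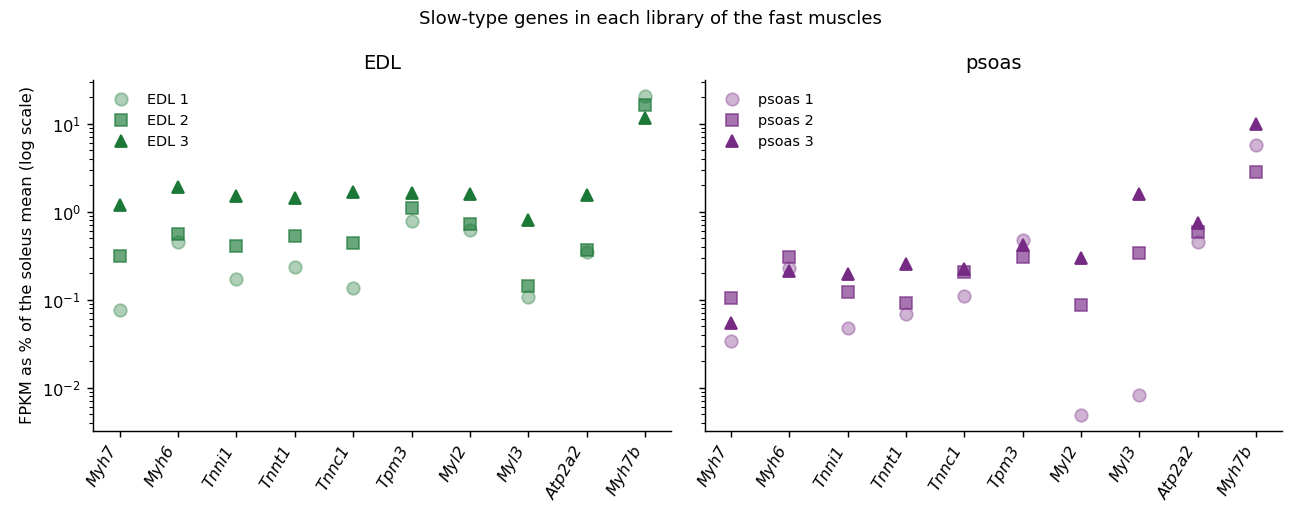
Symbols give the FPKM of each gene in each EDL (left) and psoas (right) library as a percentage of the soleus mean, on a log scale. In EDL 3 Myh7 (1.20%) and Myh6 (1.88%) lie beside the troponins and Myl2, and Myh7b lies above them in every library, at 2.78 to 20.7%.

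Regulators of the slow programme were read from a list of 28 genes, of which 27 were analysed, with list medians of 0.34 against EDL and −0.09 against psoas in soleus. Against EDL 7 were called higher in soleus and 0 lower (3 at an unadjusted p under 0.05, 0 by DESeq2): Esrrg (log2 3.596), Esrrb (4.12), Prox1 (3.87), Vgll2 (2.16), Tead1 (2.02), Rcan1 (1.81) and Thrb (1.19). Against psoas 4 were called higher, Prox1 (2.93), Esrrb (2.71), Esrrg (2.07) and Rcan1 (1.47), and the calcineurin subunit Ppp3r1 was lower (−1.07, adjusted p = 0.000797). At an unadjusted p under 0.05, 7 were higher and 9 lower than in psoas, and DESeq2 called 4 higher and 3 lower. Rcan1 lost its call against EDL without EDL 2 and against psoas without psoas 1, 2 or 3 or soleus 1, 2 or 4 (edgeR adjusted p at most 0.0187), and Thrb against EDL without EDL 1 (0.0114). Psoas was itself called above EDL, as were 0.540% of all genes, for Tead1 (1.69), Vgll2 (1.42), Esrrg (1.52) and Thrb (1.16). These 4 calls depended on single libraries: that of Esrrg was lost without EDL 1 or psoas 1, and those of Tead1, Thrb and Vgll2 without EDL 1, EDL 2, psoas 1 or psoas 3, in edgeR, and for Tead1 and Thrb also without psoas 2 or soleus 4, and for Tead1 without soleus 1. Tead1 encodes a factor that binds the MCAT element, Vgll2 a cofactor of it, and Thrb a receptor of thyroid hormone, which is known to repress Myh7. The 4 came from a list that was mostly higher in psoas: 25 of the 27 genes had a positive log2 fold change against EDL. The list median was 0.62, against 0.01 over all genes. At an unadjusted p under 0.05 in edgeR, 17 were higher in psoas and 1 lower, and DESeq2 called 7 higher and 0 lower. Myh7 and Myh6 had lower values in psoas, and a link to these regulators was not tested.

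Sox6, a repressor of slow fibre genes and a known target of the myomiRs, was at 2.34, 2.80 and 3.05 FPKM in EDL, 6.02, 4.98 and 4.46 in psoas, and 1.91, 1.85, 1.60 and 1.63 in soleus. The muscles did not overlap. It was called lower in soleus than in psoas (log2 −1.53 ± 0.16, adjusted p = 0.000162) but not than in EDL (−0.63 ± 0.16, adjusted p = 0.0176), and psoas against EDL (0.90, adjusted p = 0.00951) stayed under a 2-fold change. The other listed targets Purb, Sp3, Med13 and Cbx1 were not called by edgeR or DESeq2 in the soleus comparisons, with log2 fold changes between −0.47 and 0.54.

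The 250 bases before the RefSeq start of Myh6 and of Myh7 are shown because the 2 neighbours were called together and the factor of the MCAT element is among the genes above. Both hold the letters CATTCC on the reverse strand, shown in capitals as GGAATG. RefSeq has a second Myh7 start at position 54994549, whose window holds no match. The Myh6 window lies inside the GENCODE span of the gene, which reaches 54966927, so the annotations place its start differently. The letters TATAAA lie 1 to 6 bases after the RefSeq start of Myh6, so that start is uncertain.
Myh6 (GRCm38.p6, chr14:54966608-54966857, minus strand): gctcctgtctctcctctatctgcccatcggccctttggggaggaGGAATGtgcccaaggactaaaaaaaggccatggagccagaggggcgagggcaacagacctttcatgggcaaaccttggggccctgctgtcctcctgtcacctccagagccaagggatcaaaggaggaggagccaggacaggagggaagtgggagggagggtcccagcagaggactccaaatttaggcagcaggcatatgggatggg
Myh7 (GRCm38.p6, chr14:54994627-54994876, minus strand): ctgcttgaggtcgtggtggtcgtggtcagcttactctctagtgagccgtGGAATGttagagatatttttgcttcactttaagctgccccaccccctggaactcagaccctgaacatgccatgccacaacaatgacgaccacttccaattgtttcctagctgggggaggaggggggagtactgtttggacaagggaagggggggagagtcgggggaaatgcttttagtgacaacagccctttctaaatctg
The match lies 206 to 201 bases before the start in Myh6 and 201 to 196 in Myh7. On either strand it occurs in 14.7% of 32851 promoter windows of the reference. The window of Myh7b holds none. A link of the match to the calls of Myh6 and Myh7 was not tested.

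Markers of other cell types were read from fixed lists. Of 13 heart genes, 5 were analysed, and Nppa, Nppb, Myl7, Mybpc3, Nkx2-5, Gata4, Tbx5 and Tbx20 were not analysed here. Against EDL, Actc1 was lower in soleus (−3.49, adjusted p = 0.00896), and against psoas Tnni3 (2, 1 and 0 counts in psoas, so at least 4.31-fold higher, adjusted p = 0.00401, at most 0.418 FPKM) and Tnnt2 (1.72, adjusted p = 0.00987) were higher. These calls were lost in 8, 5 and 9 of the 10 edgeR fits without 1 library. DESeq2 also called Tnni3 higher than in EDL and Myl4 higher than in psoas. The summed FPKM of the analysed heart markers was 7.90 to 27.3 in soleus, 28.1 to 232 in EDL and 47.9 to 134 in psoas, most of it Actc1. Without Actc1 the other 4 summed to 1.67 to 2.05 FPKM in soleus, 1.51 to 1.64 in EDL and 0.366 to 0.938 in psoas. Fat cell markers had 0 calls in edgeR, but all 4 were higher in soleus at an unadjusted p under 0.05 in both comparisons, DESeq2 called 1 and 2 of them, and their summed FPKM was 25.9 to 125 in soleus, 7.56 to 21.95 in EDL and 8.04 to 43.1 in psoas. Of 6 tendon markers, 0 were called between soleus and EDL (4 lower at an unadjusted p under 0.05, 0 by DESeq2) and 5 were higher in soleus than in psoas (each lost in 2 to 4 of the 10 fits without 1 library), with summed FPKM of 17.1 to 130 in soleus, 4.56 to 12.9 in psoas and 211 to 234 in EDL. Muscle spindle, macrophage, endothelium, Schwann cell, smooth muscle and erythroid markers had 0 calls in edgeR and DESeq2 in the soleus comparisons, with at most 4 genes of a list (the 4 erythroid genes, lower than in psoas) at an unadjusted p under 0.05. In psoas against EDL, where the members had the lower values listed above, all 6 tendon genes and the spindle gene Ntf3 (−2.09) were called lower. Each of these tendon calls was lost in 3 to 7 of the 10 edgeR fits without 1 library, and that of Ntf3 in 6. Of 5 general myofibre genes, Des was called higher in soleus than in EDL (1.33, lost in 7 of the 10 fits) and Ckm lower than in psoas (−1.60, lost in 2), and 0 were called in psoas against EDL, where 4 were higher at an unadjusted p under 0.05 and DESeq2 called 1. Of the hindlimb position genes Tbx4 and Pitx1, 0 were called in edgeR in the soleus comparisons, and DESeq2 called Tbx4 higher than in EDL and Pitx1 lower than in psoas. Of 5 genes of immature fibres, Myh8 was lower in both comparisons and Ncam1 was higher than in psoas (1.85, lost without soleus 2 or soleus 4). The part of these markers in the results was not tested.

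Within 50 kb of the loci, 9 other genes were analysed, and 2 were called in soleus against each fast muscle, Mhrt and Acss2. Acss2, which encodes a cytosolic acetyl-CoA synthetase and lies 25488 bp from Myh7b, was at 1.98, 2.12 and 1.87 FPKM in EDL, 1.80, 2.14 and 3.14 in psoas, and 5.24, 5.08, 7.52 and 5.34 in soleus. It differed by 1.55 against EDL (adjusted p = 0.000879) and 1.32 against psoas (adjusted p = 0.00204), where the call was lost without psoas 1 or psoas 2 (edgeR adjusted p 0.0102 and 0.0133). Trpc4ap, which overlaps the 3′ end of Myh7b, was not called in either.

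The genes most alike in pattern were found by the distance between centred log2 (CPM + 0.5) profiles over the 10 libraries (root mean square, lower is closer), among 12664 genes with a mean of at least 1 CPM. Nearest to Myh7 were Tnni1 (0.72), Tnnt1 (0.78) and Myh6 (1.08). To Myh6 they were Tnnc1 (0.40), Tpm3 (0.55) and Tnni1 (0.69), and to Myh7b Ift81 (0.27), Ablim1 (0.37) and Npr3 (0.43). To Gm29015 they were Mhrt (0.44), Lgi1 (0.53) and Tpm3-rs7 (0.68). Myh7b was thus nearest to genes outside the slow filament list, while the nearest 3 of Myh7 and Myh6 were all slow filament or cardiac-type genes. These likenesses are descriptions over libraries that share the muscle contrast. By Pearson correlation instead of distance, 1 of the 3 nearest genes stayed for Myh7b (Ift81, now with Fam126a and Patj) and 1 for Gm29015 (Mhrt). Over the 4 soleus libraries alone, none of the 3 nearest genes of Myh7, Myh6 or Myh7b was the same, and 1 was for Gm29015.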

How the data were processed

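RNA of 10 muscle samples was prepared with the Illumina TruSeq Stranded Total RNA kit and read as 2 × 75 bp on a NextSeq 500 over several runs. The authors checked reads with FastQC, trimmed low-quality libraries with Trimmomatic 0.32, aligned pairs with TopHat 2.1.1 to the mouse genome (GRCm38.p4 annotation), counted reads per gene in R, and required 10 reads or more in 3 or more samples. The deposited values are raw counts, without normalization. All 16112 genes met this filter. The strand setting and how reads with several alignments were counted are not given in the sources used here.

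From these counts, muscles were compared with edgeR 4.0.16 (R 4.3.3), using TMM normalization, quasi-likelihood tests in 1 fit over the 10 libraries, no covariate, and Benjamini-Hochberg adjustment over all genes. Alternatives were DESeq2 1.42.0, other normalizations and filters, a test against a 2-fold change, covariates for trimming and sex, the animal code as a random effect (limma 3.58.1), thinned counts, and leaving out libraries. The fits without animal 765A and of trimmed libraries only were chosen after seeing the data. FPKM was computed with DESeq2 from exon unions of GENCODE M21, in which 16032 genes have a symbol. Totals were 12737971 to 50431713 counts, and the floor was 3 counts per library. Ratios were compared with exact permutation tests (scipy 1.17.1). Tests were checked on simulated counts. No 2 libraries held identical values (45 pairs). Named genes were the 4 members, the fixed lists, the neighbours within 50 kb and the 3 nearest genes of each member. The members and lists were chosen with earlier results of these data known. Strit1 was matched through the identifier annotated as Gm34302.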

Additional observations from a re-analysis of the deposited data

Results flagged for a closer look

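Of 9 values tested in the 4 soleus libraries, 3 had a library far from the others by Dixon's ratio at its 95% critical value for 4 libraries, and in each it was the highest, soleus 2. Chance flags about 1 in 20 groups. Gm29015 was at 170 FPKM in soleus 2 against 33.4 to 49.5 FPKM in the others (ratio 0.883). Mhrt was at 60.9 FPKM against 11.9 to 18.4 (ratio 0.867). Mhrt as a percentage of Myh7 was 4.02% against 1.25 to 1.67% (ratio 0.847). The 3 values share Myh7 or an antisense gene of its locus and are not independent. The cause was not tested.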

How the results depend on the processing

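Across the member folds and p-values, 256 alternative values were computed for 11 results, of which 244 kept direction and side of the threshold, 9 lost it, 3 passed it and 0 reversed. The lost ones came from the untrimmed libraries only (log2 6.34 for Myh7, 5.69 for Myh6 and 3.08 for Myh7b against EDL, 3.33 for Myh7b against psoas, adjusted p = 0.0800 and 0.0751 for Gm29015) and from trimming as a covariate (2.50 for Myh7b against EDL, adjusted p = 0.0272 and 0.0146 for Gm29015). DESeq2 called psoas against EDL at −3.05 for Myh7, −1.96 for Myh6 and −1.44 for Myh7b. Leaving out 1 library gave 7.01 to 9.03, 6.33 to 7.63 and 2.45 to 2.79 for Myh7, Myh6 and Myh7b against EDL, 10.30 to 11.21, 8.37 to 8.86 and 3.78 to 4.51 against psoas, and −3.62 to −1.63, −2.34 to −1.06 and −1.89 to −1.16 for psoas against EDL. The log2 ratio of Gm29015 to Myh7 differed by 0.16 between soleus and EDL, and by −0.39 with 1 count added (−0.17 to 0.39 without single libraries). EDL held 0, 1 and 2 counts of Gm29015, so this difference depends on the count added. The log2 ratio of Myh7b to Myh7 differed between psoas and EDL by −0.30 to 2.096 without single libraries. The cause of the other changes was not tested.

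Calls over all genes were 929 against EDL, 917 against psoas and 340 between fast muscles. They became 1520, 1382 and 1095 with DESeq2, 48, 33 and 0 with the untrimmed libraries only, 371, 566 and 605 with trimming as a covariate, and 185, 176 and 27 in the test against a 2-fold change. Leaving out 1 library gave 385 to 1511, 493 to 964 and 61 to 963. Psoas against EDL had 153 calls with the 2 muscles alone, 865 with sex, 215 with thinned counts, 815 without animal 765A and 159 with the trimmed libraries only.

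The replicate numbers do not pair the libraries: same-numbered libraries deviated together with correlations of −0.286 to 0.507 (9 pairs), and 5 of 10 correlated best with their own number. With the replicate block, calls were 586, 539 and 146, and Myh7 differed by 8.08, 10.73 and −2.65. No member call changed. Pairs with the same animal code correlated at 0.198 to 0.427 (3 pairs), and with the code as a random effect (limma-voom, consensus correlation 0.241) calls were 1053, 1005 and 400.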

Other observations

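EDL 3 and soleus 2, which carry the same animal code (765A), were each the highest library of their muscle for Myh7 (13.4 and 1515 FPKM) and for Myh6 (4.67 and 387 FPKM). Of the other codes with 2 libraries, 659 gave the lowest soleus level of Myh7 (784 FPKM) and also the lowest psoas level (0.375 FPKM), and 765B gave values in the middle of psoas (0.600 FPKM) and the second highest of soleus (1211 FPKM). For Myh6 these other codes did not keep the order. Code 659 gave the second highest soleus level (228 FPKM) and the middle psoas level (0.571 FPKM). Code 765B gave the lowest psoas level (0.519 FPKM) and the second lowest of soleus (205 FPKM). For Myh7b the order of 765A was not seen either: EDL 3 was the lowest EDL library (0.319 FPKM) and soleus 2 the second highest of soleus (3.11 FPKM). With 3 such pairs no test of this order was run. The 4 soleus libraries were all untrimmed, and soleus 2 and soleus 4 were both female and 44 days old, whereas EDL 3 differed from the other EDL libraries in trimming and sex as well.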
